A study of Mus musculus with 24 samples.

Results

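The 7 genes described are those of the DNA methyltransferases Dnmt1, Dnmt3a and Dnmt3b and of the methyl-CpG binding domain proteins Mbd1, Mbd2, Mbd3 and Mbd4, among 18444 protein-coding genes named on the array. They were found by gene name in the array's own annotation, older symbols included, which gave 12 probes among 41174 that are not controls. Dnmt3a and Mbd1 have 3 probes each, Mbd2 has 2 and the other genes have 1. RNA came from Ku70-/- mouse embryonic fibroblasts, 1 cell line in which the end-joining gene Ku70 is deleted, so that every group, the untreated controls included, lacks it. The first array set holds 3 arrays each of control cells, of cells treated with 20 mM of the oxidant KBrO3 for 1 hr and left to repair for 3 or 23 hr (KBrO3 alone at 4 and 24 hr), and of cells that also had 150 µM bisphenol A (BPA) in the medium from 1 hr before KBrO3 until harvest (co-exposure, at the same times). In the second set there are 3 arrays for its own controls and 3 for each time of 150 µM BPA alone, labelled 4 and 24 hr. The methods put the BPA-only cells in BPA for 1 hr longer than those labels say. Controls of the first set are labelled 4 hr and those of the second carry no time, and no control is labelled 24 hr. The methods call the 3 replicates of a group biological, and nothing says more of how they differ, so p-values measure the spread between these samples.

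DNA methylation in mammals is written mainly on cytosines that precede a guanine (CpG). Dnmt1 copies the methylation pattern to the daughter strand after replication, and Dnmt3a and Dnmt3b add methyl groups at unmethylated sites. Proteins with a methyl-CpG binding domain read the mark. Mbd1 and Mbd2 are transcriptional repressors, Mbd2 and Mbd3 are alternative subunits of the NuRD nucleosome remodelling and deacetylase complex, mammalian Mbd3 binds methylated CpG poorly, and Mbd4 is a DNA glycosylase that removes thymine or uracil mispaired with guanine, as arises when 5-methylcytosine or cytosine is deaminated. Cells lacking Mbd4 accumulate C-to-T mutations at CpG sites.

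What the arrays measure is the RNA that binds a 60-base probe. Printed here, 5′ to 3′ with CpG pairs in capitals, are the probes of Dnmt1, Dnmt3a, Mbd3 and Mbd4, whose values the results below turn on, with the position that the array files give on mouse build mm7.
Dnmt1 (A_51_P195573, chr9:20784085-20784453, minus strand): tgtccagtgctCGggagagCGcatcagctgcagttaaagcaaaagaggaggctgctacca
Dnmt3a (A_52_P76146, chr12:3825243-3826024, plus strand): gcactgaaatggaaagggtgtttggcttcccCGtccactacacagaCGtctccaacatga
Mbd3 (A_51_P398004, chr10:80183845-80183905, minus strand): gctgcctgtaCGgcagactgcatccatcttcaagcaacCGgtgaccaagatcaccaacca
Mbd4 (A_51_P203192, chr6:115868170-115868229, minus strand): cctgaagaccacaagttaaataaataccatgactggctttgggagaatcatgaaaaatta
The Dnmt1 probe covers 369 bases of the genome and the Dnmt3a probe 782, so the sequence that each matches lies in separate pieces of the gene. The probes of Mbd4 and Mbd3 lie within 60 and 61 bases. Those of Dnmt1, Dnmt3a and Mbd3 each hold 2 CpG pairs and that of Mbd4 holds 0.

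Values are log2 signals relative to the 75th percentile of each array, so that a difference of 1 is a 2-fold change, and they are not compared between probes. Each gene is represented by its brightest probe, and all 7 of these were well above background and unsaturated on all 24 arrays. A difference was called where limma's two-sided Benjamini-Hochberg adjusted p, over all probes tested in the set, was below 0.05. From 57.7% to 68.1% of spots were well above background on the arrays of the first set, with a median residual SD of 0.107 per probe, and from 76.4% to 79.4% on those of the second, with a median of 0.340. All 11 fibroblast markers tested were above background on the control arrays, and some markers of other cell types were too. From 2 to 3 of 5 blood, 1 to 2 of 4 endothelial, 3 to 4 of 6 epithelial and at most 2 of 4 neural, 1 of 4 muscle and 1 of 4 pluripotency markers were above background on a first-set control array. Cd68, Cd3e, Tek and the epithelial keratin genes Krt5 and Krt14 were above it on all 24 arrays, and Ptprc, Pecam1, Nanog and Myf5 on 0. The Ku70 gene, Xrcc6, gave a signal of 0.10 ± 0.10 (SD, n = 3) in controls of that first set, which does not check the labels, since wild-type cells were not analysed here. In these bulk samples, fewer cells of a type and less RNA per cell cannot be told apart. Each set lies on 5 slides, and of the first set's treatments only KBrO3 alone at 4 hr has a control array on its slide. When the set's other treatments are compared with control, the treatment cannot be told apart from the slide. With slide as a random block, the consensus correlation of arrays on 1 slide was 0.634 for first-set arrays and 0.115 for second-set arrays. The main fit takes arrays of 1 slide as independent. Where all arrays of a group share a slide, their spread leaves out differences between slides, so the main p-values can be too small.

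At 4 hr the de novo methyltransferase genes and Mbd1 rose, Mbd4 fell, and Dnmt1 fell slightly after KBrO3 alone and more after co-exposure. KBrO3 alone changed 5 of the 7 genes at 4 hr, 3 of them higher and 2 lower than control, where 72.7% of the 14106 protein-coding genes tested were called, 34.5% higher and 38.1% lower. Co-exposure at 4 hr changed all 7 of 7, with 3 higher and 4 lower, against 80.4% of all genes, 39.7% higher and 40.7% lower. At 24 hr, 6 of 7 differed from control after KBrO3 alone, 5 higher and 1 lower, where the shares over all genes were 69.4%, 31.3% and 38.1%. After co-exposure at 24 hr 6 of 7 differed too, 5 higher and 1 lower, where 72.5% of all genes were called, 34.5% higher and 38% lower. In every 24 hr difference from the controls of this set, labelled 4 hr, treatment cannot be told apart from time in culture. The share of members called was thus near that of all genes, and the counts alone do not set this group apart. By the stricter rule of the methods (Bonferroni p below 0.01 and a fold change beyond 1.5), 4 of 7 were changed by KBrO3 alone at 4 hr against 31.2% of all genes, 4 by co-exposure at 4 hr against 35.9%, 1 by KBrO3 alone at 24 hr against 20% and 1 by co-exposure at 24 hr against 23.8%.

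**Figure D1:**
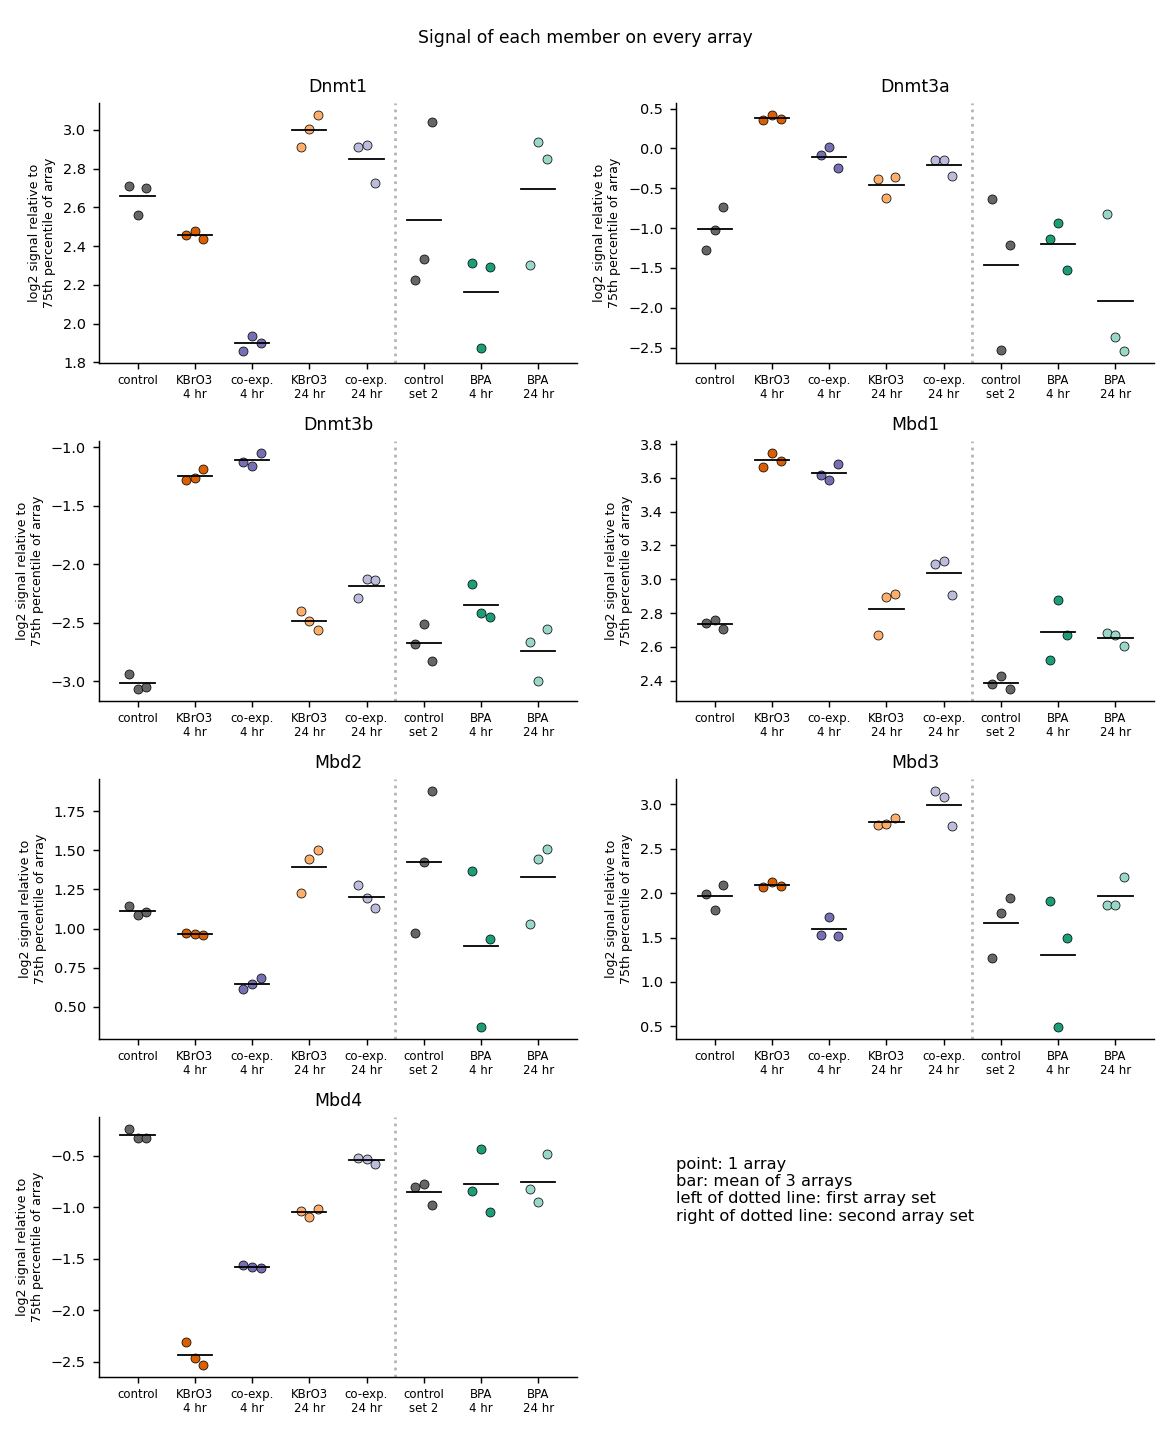
Log2 signal relative to the 75th percentile of the array (vertical axis, a different range in each panel) for the 7 genes in the 8 groups (horizontal axis), with 1 point per array and a bar at the mean of 3 arrays. Arrays of the first set lie close together within a group, as for Mbd4 at 4 hr after co-exposure (−1.56, −1.58 and −1.59), while those of the second set spread more widely.

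Dnmt1, the maintenance methyltransferase gene, was lower than control at 4 hr and higher at 24 hr. Its log2 signal was 2.71, 2.56 and 2.70 on the control arrays, 2.46, 2.48 and 2.44 after KBrO3 alone at 4 hr, and 1.86, 1.94 and 1.90 after co-exposure at 4 hr. The 3 co-exposed arrays lay below every other array of the set. The difference from control was −0.20 for KBrO3 alone (95% CI −0.34 to −0.06, adjusted p = 0.0122), a 1.15-fold fall, and −0.76 for co-exposure (95% CI −0.90 to −0.62, adjusted p = 2.25e-07), a 1.69-fold fall. The small fall after KBrO3 alone was not called when arrays were scaled to their median (adjusted p = 0.104), and with normexp background correction of the raw signals it was 0.05 (adjusted p = 0.798). At 24 hr the signals were 2.91, 3.00 and 3.08 after KBrO3 alone and 2.91, 2.92 and 2.72 after co-exposure, which overlap each other and lie above all 3 controls. The rises were 0.34 (adjusted p = 0.000439) and 0.19 (adjusted p = 0.0157). The latter call did not hold with slide as a random block (adjusted p = 0.133), in a fit of only the 6 arrays (adjusted p = 0.087) or without replicate 2 of control, or replicate 1 or 2 of that treatment (adjusted p = 0.072, 0.0602 and 0.062). Of 17 genes of DNA replication and S phase, 12 rose and 4 fell after KBrO3 alone at 4 hr, and 10 rose and 5 fell after co-exposure, where 34.5% and 39.7% of all genes rose and 38.1% and 40.7% fell, with the MCM helicase subunit gene Mcm5 1.43 and 1.36 above control. With quantile normalization 9 rose and 6 fell in each, and Mcm4 and Mcm7 turned direction. At 24 hr 11 rose and 4 fell after KBrO3 alone, and 12 rose and 2 fell after co-exposure, where 31.3% and 34.5% of all genes rose. The summed level of these 17 genes (log2) ran from 8.37 to 8.44 in controls, from 8.78 to 8.80 after KBrO3 alone at 4 hr and from 8.69 to 8.72 after co-exposure at 4 hr. The part of the cell cycle in the Dnmt1 values was not tested.

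Dnmt3a, a de novo methyltransferase gene, rose under all 4 treatments with KBrO3. Signals were −1.27, −1.03 and −0.74 in controls, 0.36, 0.42 and 0.37 after KBrO3 alone at 4 hr and −0.09, 0.02 and −0.24 after co-exposure at 4 hr. None of the 3 groups overlaps another. The gene was 1.40 above control after KBrO3 alone (95% CI 1.13 to 1.67, adjusted p = 4.39e-07), a 2.63-fold rise, and 0.91 above it after co-exposure (adjusted p = 2.13e-05). Against the 1 control array on the same slide, the rise after KBrO3 alone was 1.13. At 24 hr the values were −0.39, −0.62 and −0.36 after KBrO3 alone, 0.56 above control (adjusted p = 0.00154), and −0.15, −0.14 and −0.35 after co-exposure, 0.80 above it (adjusted p = 8.83e-05). With normexp the rise after KBrO3 alone at 24 hr was 0.29 and was not called (adjusted p = 0.121).

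The other probes of Dnmt3a rose with it at 4 hr and parted from each other at 24 hr. Probe A_52_P169048 was 1.09 and 0.74 above control after KBrO3 alone and co-exposure at 4 hr, and 0.72 and 0.63 above it at 24 hr, all 4 of them called. Probe A_52_P30497 was 0.87 and 0.74 above control at 4 hr, which were called, but 0.04 above it after KBrO3 alone at 24 hr (adjusted p = 0.809) and 0.20 below it after co-exposure at 24 hr (log2 difference −0.20, adjusted p = 0.239). On build mm7 these probes start at positions 3826602 and 3830965 of chromosome 12, both farther along the gene than the representative probe, which ends at 3826024. A persistent rise at 24 hr thus holds for 2 of the 3 probes.

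Dnmt3b, the other de novo methyltransferase gene, had the largest rise of the 7 at 4 hr. Control arrays gave −2.94, −3.06 and −3.05, KBrO3 alone at 4 hr −1.28, −1.26 and −1.19, and co-exposure at 4 hr −1.12, −1.16 and −1.05. All 6 treated arrays lay far above the controls. KBrO3 alone raised it by 1.77 (95% CI 1.64 to 1.91, adjusted p = 7.58e-11), or 3.42-fold, and co-exposure by 1.90 (95% CI 1.77 to 2.04, adjusted p = 3.18e-11), or 3.74-fold. Less of the rise was present at 24 hr, with −2.40, −2.49 and −2.57 after KBrO3 alone (0.53 above control, adjusted p = 8.26e-06) and −2.29, −2.12 and −2.14 after co-exposure (0.83 above control, adjusted p = 1.13e-07). These values depend on the background correction. With normexp the 4 hr rises were 0.44 and 0.58 and were not called (adjusted p = 0.24 and 0.139), and at 24 hr the differences turned to −0.63 and −0.35 (adjusted p = 0.0981 and 0.344).

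**Figure D2:**
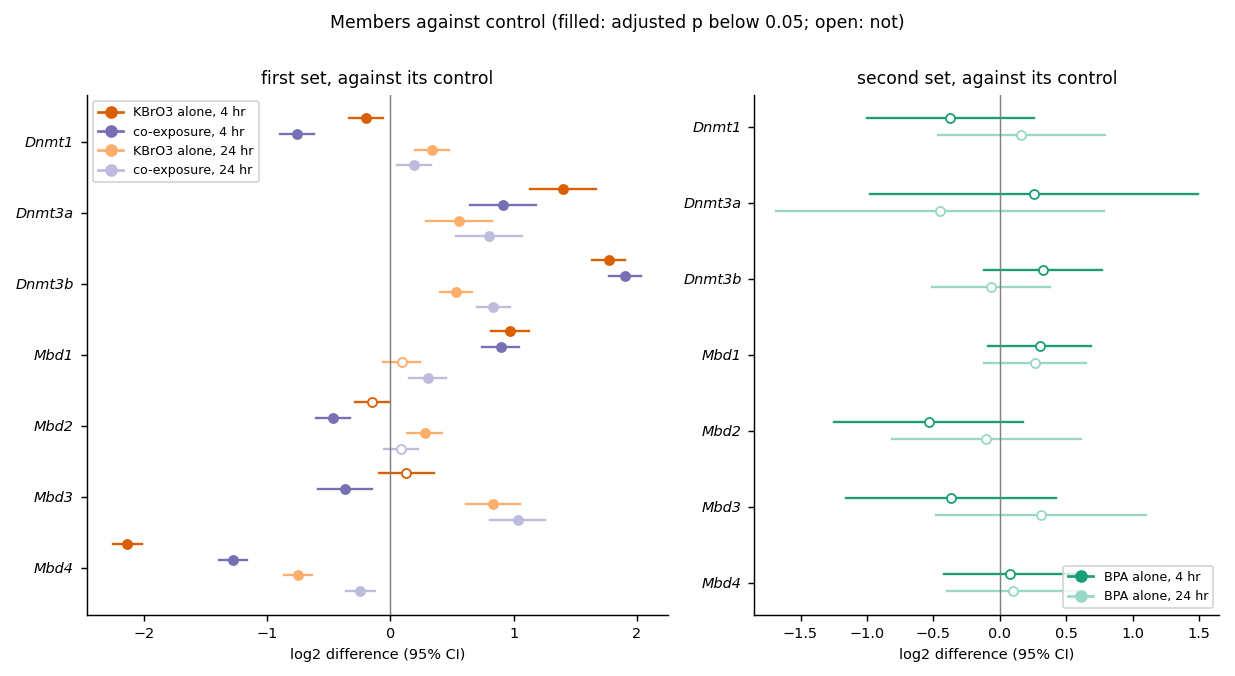
Log2 difference from the controls of the same set (horizontal axis) with its 95% confidence interval for each gene, in the first set (left) and the second (right), with filled points for an adjusted p below 0.05. At 4 hr Dnmt3b (1.77 and 1.90) and Mbd4 (−2.14 and −1.28) lie farthest from 0, and all points of BPA alone are open.

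Mbd1, a repressor that binds methylated CpG, rose at 4 hr and was closer to control at 24 hr. Its values were 2.74, 2.76 and 2.70 in controls, 3.67, 3.75 and 3.70 after KBrO3 alone at 4 hr and 3.62, 3.59 and 3.68 after co-exposure at 4 hr. Both treated groups lay above all controls and overlapped each other. The rises were 0.97 (95% CI 0.82 to 1.12, adjusted p = 6.5e-08) and 0.89 (95% CI 0.74 to 1.05, adjusted p = 1.24e-07), that is, 1.96- and 1.86-fold. At 24 hr the gene gave 2.67, 2.89 and 2.91 after KBrO3 alone, 0.09 above control (95% CI −0.06 to 0.24, adjusted p = 0.27), and 3.09, 3.11 and 2.91 after co-exposure, 0.30 above control (adjusted p = 0.00203). Without replicate 1 of KBrO3 alone at 24 hr, its lowest array, the first of these differences was 0.17 (adjusted p = 0.0293). It was also called with quantile normalization (0.18, adjusted p = 0.0106), with normexp (0.43, adjusted p = 0.0173) and as the mean of all 3 probes (0.19, adjusted p = 0.00488).

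Mbd1 probe A_52_P158923 followed the representative probe, with rises of 1.10 and 1.00 at 4 hr and 0.04 and 0.22 at 24 hr, whereas probe A_52_P131423 did not. The latter, designed to a separate transcript record, was 1.2 above control after KBrO3 alone at 4 hr (adjusted p = 9.25e-09) but only 0.21 above it after co-exposure (adjusted p = 0.0168). Its arrays read −2.53, −2.35 and −2.42 in controls, −1.14, −1.31 and −1.24 after KBrO3 alone and −2.23, −2.26 and −2.18 after co-exposure, with no overlap between these groups. At 24 hr it was 0.45 above control after KBrO3 alone (adjusted p = 0.000122) and −0.09 from control after co-exposure (adjusted p = 0.275). This probe was thus lower after co-exposure than after KBrO3 alone at 4 hr (log2 difference −0.996, adjusted p = 5.16e-07) and at 24 hr (log2 difference −0.54, adjusted p = 6.05e-05), where the representative probe differed by −0.08 and 0.21.

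**Figure D3:**
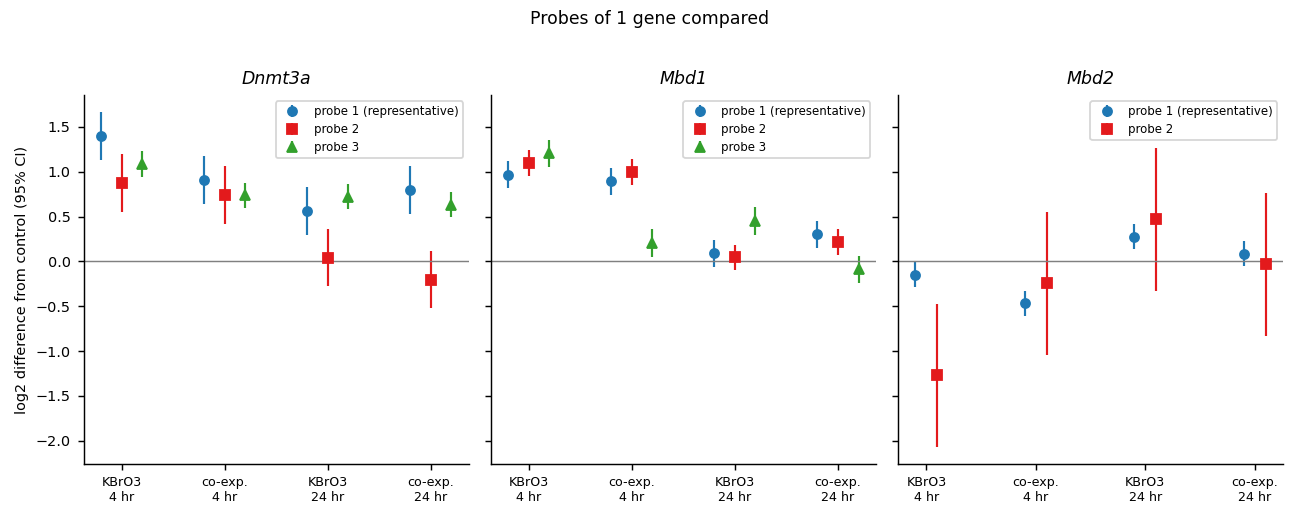
Log2 difference from control with its 95% confidence interval (vertical axis) for every probe of Dnmt3a, Mbd1 and Mbd2, under 4 treatments of the first set (horizontal axis). Probe 2 of Dnmt3a returns to 0.04 and −0.20 at 24 hr while probes 1 and 3 stay above control, and probe 3 of Mbd1 reads 1.2 after KBrO3 alone but 0.21 after co-exposure at 4 hr.

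Mbd2, the methyl-CpG binding subunit of NuRD, fell after co-exposure at 4 hr and was higher after KBrO3 alone at 24 hr. Controls read 1.15, 1.09 and 1.11. After KBrO3 alone at 4 hr the 3 arrays read 0.97, 0.97 and 0.96, all below the controls, for a difference of −0.15 that just missed the threshold (95% CI −0.29 to −0.01, adjusted p = 0.0529). With quantile normalization that difference was −0.23 and was called (adjusted p = 0.0037). Co-exposure at 4 hr gave 0.61, 0.64 and 0.68, a difference of −0.47 (adjusted p = 2.31e-05) or a 1.38-fold fall. At 24 hr KBrO3 alone gave 1.23, 1.44 and 1.5, a rise of 0.28 (adjusted p = 0.00208), and co-exposure gave 1.28, 1.2 and 1.13, a difference of 0.09 (95% CI −0.05 to 0.23, adjusted p = 0.235) with overlap of the controls. Scaled to the array median, the difference after co-exposure at 24 hr was 0.41 and was called (adjusted p = 0.00727). The other Mbd2 probe, A_51_P256337, was dim and noisy, with a residual SD of 0.479 in the first set against 0.0754 for the representative probe. Among the first set's comparisons with control only its difference of −1.27 after KBrO3 alone at 4 hr was called (adjusted p = 0.00754), and 1 of those 3 treated arrays was above background, so its size is uncertain. As the mean of both probes, neither the fall after co-exposure at 4 hr (−0.35, adjusted p = 0.117) nor the rise after KBrO3 alone at 24 hr (0.37, adjusted p = 0.114) was called.

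Mbd3, the alternative NuRD subunit, was highest at 24 hr. It read 1.99, 1.81 and 2.09 in controls and 2.07, 2.13 and 2.08 after KBrO3 alone at 4 hr, groups that overlap (difference 0.13, 95% CI −0.09 to 0.35, adjusted p = 0.273). After co-exposure at 4 hr it read 1.53, 1.73 and 1.52, all below the controls (difference −0.37, adjusted p = 0.00528), a difference that with normexp was −0.14 (adjusted p = 0.486). The 24 hr arrays read 2.77, 2.78 and 2.85 after KBrO3 alone and 3.15, 3.08 and 2.76 after co-exposure. These rises, of 0.83 (95% CI 0.61 to 1.05, adjusted p = 1.39e-05) and 1.03 (95% CI 0.81 to 1.25, adjusted p = 1.7e-06), are 1.78- and 2.05-fold, and the groups overlap each other.

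Mbd4, the glycosylase of the group, fell most of the 7 under KBrO3 alone at both times. Control arrays gave −0.24, −0.32 and −0.33, KBrO3 alone at 4 hr −2.31, −2.47 and −2.53, and co-exposure at 4 hr −1.56, −1.58 and −1.59, with no overlap between any of these groups. KBrO3 alone lowered it 4.40-fold (log2 difference −2.14, 95% CI −2.25 to −2.02, adjusted p = 4.91e-12) and co-exposure 2.43-fold (log2 difference −1.28, 95% CI −1.40 to −1.16, adjusted p = 3.12e-10). Against the control array on its own slide, the difference under KBrO3 alone was −2.11. At 24 hr it read −1.03, −1.10 and −1.02 after KBrO3 alone and −0.52, −0.53 and −0.58 after co-exposure. These are 0.75 and 0.24 below control (log2 differences −0.75 and −0.24, adjusted p = 1.04e-07 and 0.00132), so that the order from the highest was control, co-exposure at 24 hr, KBrO3 alone at 24 hr, co-exposure at 4 hr and KBrO3 alone at 4 hr, with no overlap between neighbours. When arrays were scaled to their median, co-exposure at 24 hr was 0.07 above control and was not called (adjusted p = 0.481).

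Markers of cell types were measured beside these genes. At 4 hr 5 of 11 fibroblast markers were lower and 1 higher after KBrO3 alone, and 9 were lower and 1 higher after co-exposure, where 38.1% and 40.7% of all genes were lower. Among markers of other cells, the macrophage gene Cd68 was 2.25 and 1.66 above control at 4 hr and 1.16 and 1.87 above it at 24 hr, the endothelial receptor gene Kdr was 1.52 and 1.41 above control at 4 hr and 1.58 and 0.60 at 24 hr, and the germ and stem cell gene Dppa3, below background on all 3 controls, was at least 9.45- and 5.05-fold higher at 4 hr. Tek, the other endothelial marker tested, was not called at 4 hr and was lower at 24 hr. It read −3.51 in controls, −4.05 after KBrO3 alone and −4.59 after co-exposure at 24 hr. Cd3e, the other blood marker tested, rose after KBrO3 alone at 4 hr. After co-exposure at 24 hr it was lower, at −4.08 against −3.41 in controls. Ptprc, Itgam and Adgre1 of the blood list and Nanog and Zfp42 of the pluripotency list were above background on 0 arrays of either treatment at 4 hr. Of 4 epithelial markers tested, 3 rose and 1 fell after KBrO3 alone and 2 rose and 1 fell after co-exposure at 4 hr. Of 2 neural and 2 muscle markers tested, 0 were called after KBrO3 alone and all rose after co-exposure at 4 hr, where 34.5% and 39.7% of all genes rose. Gfap (neural), Myog (muscle) and Krt8 (epithelial) entered the test of the first set only through the co-exposed 4 hr arrays. They were above background on all 3 of those and on 0 of 3 controls, so the filter favored a rise there. Dppa3 entered only through the 4 hr arrays of both treatments. The summed level (log2) of the 5 blood markers ran from −2.24 to −1.97 in controls, from −0.48 to −0.40 after KBrO3 alone and from −0.93 to −0.92 after co-exposure at 4 hr, and that of the 4 pluripotency markers from −4.51 to −4.21, from −2.06 to −1.89 and from −2.75 to −2.51. At 24 hr all 11 fibroblast markers were lower than control after both treatments, against 38.1% and 38% of all genes, with log2 differences of −3.83 and −4.45 for the small proteoglycan gene Lum, and the summed level (log2) of the 11 ran from 10.4 to 10.5 in controls, from 8.98 to 9.12 after KBrO3 alone and from 8.60 to 8.78 after co-exposure. At 4 hr it ran from 10.3 to 10.4 and from 10.1 to 10.1. The part of these shifts in the values of the methylation genes was not tested.

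The 24 hr arrays were also compared with the 4 hr arrays of the same treatment. With no control labelled 24 hr, these differences cannot be told apart from time in culture. After KBrO3 alone, 7 of 7 differed between the times, 4 higher at 24 hr and 3 lower, where 77.7% of all genes were called, 34% higher and 43.8% lower. Dnmt3a, Dnmt3b and Mbd1 were lower at 24 than at 4 hr (−0.84, −1.24 and −0.88, adjusted p = 4.89e-05, 2.21e-09 and 1.85e-07), and Mbd4 was 1.39 higher (adjusted p = 2.41e-10). Dnmt3a, Dnmt3b and Mbd4 remained called against control at 24 hr. Dnmt1, Mbd2 and Mbd3 were 0.54, 0.42 and 0.70 higher at 24 hr than at 4 hr (adjusted p = 6.45e-06, 5.96e-05 and 4.3e-05). After co-exposure 6 of 7 differed, 4 higher and 2 lower, against 84.5% of all genes, 37.1% higher and 47.4% lower. There the rise from 4 to 24 hr was 1.40 for Mbd3 (adjusted p = 6.78e-08), 1.03 for Mbd4, 0.95 for Dnmt1 and 0.56 for Mbd2. The other Mbd2 probe, A_51_P256337, read −4.37 ± 0.35 (SD, n = 3) at 4 hr and −4.16 ± 0.25 (SD, n = 3) at 24 hr of co-exposure. Dnmt3b and Mbd1 were lower by 1.07 and 0.59 (log2 differences −1.07 and −0.59), and Dnmt3a differed by −0.11 (adjusted p = 0.408). Under scaling to the array median Mbd1 became −0.13 and was not called (adjusted p = 0.329), and Dnmt3a became 0.35 (adjusted p = 0.0161). Dnmt3a probe A_52_P30497 was lower at 24 hr after co-exposure (−0.94, adjusted p = 8.23e-05), while A_52_P169048 differed by −0.10 (adjusted p = 0.165). The stricter rule kept 3 of 7 for KBrO3 alone and 4 of 7 for co-exposure, against 29.7% and 34.7% of all genes.

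Co-exposure against KBrO3 alone asks what BPA added in cells that received the oxidant. At 4 hr 5 of 7 genes differed, 1 higher and 4 lower with BPA, where 60.8% of all genes were called, 28.1% higher and 32.7% lower. Mbd4 was 0.86 higher with BPA (95% CI 0.74 to 0.97, adjusted p = 1.94e-07), or 1.81-fold, on 3 of 3 arrays. Dnmt1 was lower by 0.56 (log2 difference −0.56, adjusted p = 1.75e-05), Mbd3 by 0.50 (−0.50, adjusted p = 0.00135), Dnmt3a by 0.49 (−0.49, adjusted p = 0.00516) and Mbd2 by 0.32 (−0.32, adjusted p = 0.00113). The groups did not overlap for any of these 4, and the share of all genes without overlap was not counted. As the mean of both probes, Mbd2 turned to 0.36 and was not called (adjusted p = 0.143). With normexp only Mbd4 of these 5 was called, and with slide as a random block Dnmt3a was −0.41 and was not (adjusted p = 0.125). Dnmt3a probes A_52_P169048 and A_52_P30497 gave −0.35 (adjusted p = 0.000728) and −0.13 (adjusted p = 0.468). The intervals for Dnmt3b (0.00 to 0.27 around 0.13) and Mbd1 (−0.23 to 0.08 around −0.08) include values near 0, and neither was called (adjusted p = 0.0832 and 0.374). Mbd1 probe A_52_P131423 was lower with BPA, as given above, at −1.23 after KBrO3 alone and −2.22 after co-exposure. Mbd1 probe A_52_P158923 read −0.25 and −0.35. At 4 hr all arrays of KBrO3 alone lie on 1 slide and all of co-exposure on another, so that BPA and slide cannot be told apart in these differences.

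At 24 hr 4 of the 7 genes differed with BPA, 3 higher and 1 lower, against 50.4% of all genes, 28.5% higher and 21.9% lower. Mbd4 was 0.51 higher with BPA (95% CI 0.39 to 0.62, adjusted p = 8.96e-06), and within the slide that holds 2 arrays of each treatment the difference was 0.53. Dnmt3b was 0.30 higher (adjusted p = 0.00155), and 0.32 within that slide. With normexp, and in a fit of all 24 arrays, only 1 of the 7 genes was called for BPA added at 24 hr. Mbd1 (0.21, adjusted p = 0.0261) and Mbd2 (−0.19, adjusted p = 0.0286) were called although their arrays overlap, and without replicate 2 of co-exposure at 24 hr neither was. Dnmt1 (−0.15, adjusted p = 0.0764), Dnmt3a (0.24, adjusted p = 0.129) and Mbd3 (0.20, adjusted p = 0.127) were not called. With slide as a random block all 3 were (−0.14, 0.30 and 0.26, adjusted p = 0.036, 0.0346 and 0.0209), and with slide as a fixed block Dnmt3a and Mbd3 were (0.34 and 0.31, adjusted p = 0.0296 and 0.0134). Dnmt3a probes A_52_P30497 and A_52_P169048 were −0.25 and −0.09 and were not called (adjusted p = 0.194 and 0.284). The BPA-added difference itself changed from 4 to 24 hr for 5 of 7 genes, rising for 4 and falling for 1, where 57.4% of all genes were called, 31.4% rising and 26% falling. It rose for Dnmt3a by 0.73, Mbd3 by 0.70, Dnmt1 by 0.41 and Mbd1 by 0.29 (adjusted p = 0.00409, 0.00165, 0.00225 and 0.0278) and fell for Mbd4 by 0.35 (−0.35, adjusted p = 0.00213). It was 0.17 for Dnmt3b and 0.13 for Mbd2, which were not called (adjusted p = 0.116 and 0.236) but were with scaling to the array median (0.48 and 0.44, adjusted p = 0.00244 and 0.0382). The rise for Mbd1 was 0.13 with quantile normalization (adjusted p = 0.176), was not called with slide as a random block (adjusted p = 0.102), and lost its call without any of 6 single arrays (adjusted p from 0.0529 to 0.0664), namely replicate 2 of KBrO3 alone and replicates 1 and 2 of co-exposure at 4 hr, and replicate 1 of KBrO3 alone and replicates 1 and 2 of co-exposure at 24 hr. The value for Mbd4 was −0.0386 with scaling to the array median, −0.0759 with normexp and −0.30 with slide as a random block, and was not called in any of these (adjusted p = 0.818, 0.935 and 0.0673). For Dnmt3a the other probes gave −0.12 (adjusted p = 0.66) and 0.26 (adjusted p = 0.0314), and the mean of all 3 probes gave 0.29, which was not called (adjusted p = 0.0593). By the stricter rule 1 gene, Mbd4, differed with BPA at 4 hr against 6.01% of all genes, 0 were at 24 hr against 7.44%, and 0 passed for the change between the times against 4.91%. These comparisons use the same arrays of KBrO3 alone and co-exposure as those with control.

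**Figure D4:**
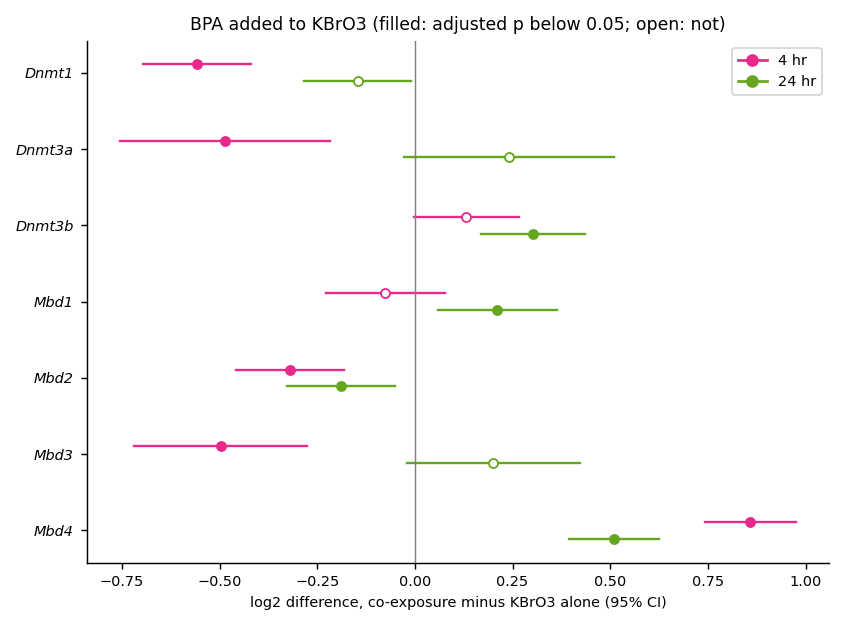
Log2 difference of co-exposure minus KBrO3 alone (horizontal axis) with its 95% confidence interval for the 7 genes at 4 and 24 hr, filled where the adjusted p was below 0.05. Mbd4 lies to the right at both times (0.86 and 0.51), and Dnmt1, Dnmt3a, Mbd2 and Mbd3 lie to the left at 4 hr.

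BPA alone gave no called change in any of the 7 genes at 4 or 24 hr or between the times, where 4.68%, 4.31% and 4.3% of 15748 genes were called, and 0 of 7 had an unadjusted limma p below 0.05 in any of the 3 comparisons. By the stricter rule 0 passed as well. The intervals are wide. At 4 hr that of Dnmt1 ran from −1.0 to 0.26 around −0.37, that of Mbd4 from −0.42 to 0.57 around 0.08 and that of Dnmt3b from −0.12 to 0.77 around 0.33. Mbd2 was −0.54 from control (95% CI −1.25 to 0.17) and Mbd3 −0.36 (95% CI −1.15 to 0.43). Within the slide that holds 2 of these BPA arrays and 1 control, Dnmt1 was at 0.0819, Dnmt3a at −0.70, Mbd2 at 0.18, Mbd3 at 0.43 and Mbd4 at −0.15, each of opposite sign to its value over the set. At 24 hr the differences from control were 0.16 for Dnmt1, −0.45 for Dnmt3a, −0.0645 for Dnmt3b, −0.0997 for Mbd2, 0.31 for Mbd3 and 0.10 for Mbd4, and between the times they ran from −0.71 for Dnmt3a to 0.67 for Mbd3. Dnmt3a could hardly be read, with controls at −0.64, −2.53 and −1.21, BPA at 4 hr at −1.14, −0.94 and −1.53, and BPA at 24 hr at −0.83, −2.37 and −2.54. Its interval at 4 hr ran from −0.98 to 1.5. Mbd1 had the narrowest spread, with 2.38, 2.43 and 2.35 in controls, 2.52, 2.88 and 2.67 at 4 hr and 2.68, 2.67 and 2.61 at 24 hr. All 6 treated arrays lay above the controls, at differences of 0.30 and 0.27 that were not called (adjusted p = 0.393 and 0.455). Of the 12 probes 1 was called, Mbd1 probe A_52_P131423 at 4 hr, which read −3.47, −3.99 and −4.66 in controls and −3.11, −2.51 and −2.56 with BPA (difference 1.31, 95% CI 0.62 to 2.01, adjusted p = 0.0477).

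Across the 15 arrays of the first set the genes fell into pairs with like profiles, given as a description since arrays of 1 group share a treatment. Dnmt1 and Mbd2 had a Pearson r of 0.98 and a Spearman rho of 0.98, and Mbd3 followed both (r = 0.87 with Dnmt1 and 0.83 with Mbd2). Dnmt3b and Mbd1 had an r of 0.96 and a rho of 0.83. Mbd4 ran opposite to Mbd1 (r = −0.87), Dnmt3b (r = −0.85) and Dnmt3a (r = −0.84). Over the 9 arrays of the second set Mbd4 had an r of 0.42, 0.32 and −0.07 with these genes, and Dnmt3b had 0.16 with Mbd1. Dnmt1 and Mbd2 kept an r of 0.87 there, and Mbd3 had 0.76 with Dnmt1 and 0.87 with Mbd2. Among 14083 other protein-coding genes, the profile most like that of Dnmt1 was Dennd6b (r = 0.99, n = 15 arrays), followed by Ino80c and Pcnt, and Ino80c led for Mbd2 (r = 0.99), ahead of Ppp1r14c and Krt10. For Dnmt3b the leading genes were Prdx1 (r = 0.997), which encodes a peroxiredoxin, Zfand2a and Rwdd4a, for Dnmt3a they were Plin2 (r = 0.97), Arhgef7 and Pa2g4, and for Mbd1 they were Tmem11 (r = 0.99), Med10 and Bmyc. Retsat (r = 0.99), Ifnz and BC005624 led for Mbd3, and Klf15 (r = 0.99), Ncoa7 and Slc35d2 for Mbd4.

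The promoters of Dnmt3b, Mbd3 and Mbd4 are shown because these genes moved far and in different directions, Dnmt3b up at 4 hr, Mbd3 up at 24 hr and Mbd4 down. Each line gives the 250 bases before the RefSeq start site on build GRCm38.p6, 5′ to 3′ along the gene, with capitals for GGGCGG or its reverse complement CCGCCC (the GC box) and for CCAAT or its reverse complement ATTGG (the CCAAT box).
Dnmt3b (chr2:153649199-153649448, plus strand): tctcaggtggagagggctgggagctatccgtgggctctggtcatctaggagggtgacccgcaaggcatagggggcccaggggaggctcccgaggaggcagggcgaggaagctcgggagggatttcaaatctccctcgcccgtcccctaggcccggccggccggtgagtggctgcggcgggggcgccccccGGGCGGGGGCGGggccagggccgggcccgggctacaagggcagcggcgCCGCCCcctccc
Mbd3 (chr10:80399532-80399781, minus strand): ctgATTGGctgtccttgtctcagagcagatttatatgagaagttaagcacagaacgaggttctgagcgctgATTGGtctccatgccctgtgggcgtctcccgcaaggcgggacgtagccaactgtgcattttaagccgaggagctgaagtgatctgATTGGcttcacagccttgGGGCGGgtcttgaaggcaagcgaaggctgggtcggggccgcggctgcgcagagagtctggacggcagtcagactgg
Mbd4 (chr6:115853342-115853591, minus strand): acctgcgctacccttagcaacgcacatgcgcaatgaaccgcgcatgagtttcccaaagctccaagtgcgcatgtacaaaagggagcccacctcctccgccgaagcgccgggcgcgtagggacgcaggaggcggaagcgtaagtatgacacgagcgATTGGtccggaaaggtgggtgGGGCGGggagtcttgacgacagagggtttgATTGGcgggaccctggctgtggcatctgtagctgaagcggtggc
Dnmt3b has 3 GC boxes and 0 CCAAT boxes, Mbd3 has 1 and 3, and Mbd4 has 1 and 2. Over 32851 promoters of the same length, 32.7% hold a GC box and 33.8% a CCAAT box. Searched on both strands as well were CACGTG (the E-box, in 6.02% of promoters) and the E2F motif in 4 spellings, TTTCCCGC, TTTCGCGC, TTTGCCGC and TTTGGCGC (1.86%), and these 3 windows hold neither. Of 3 RefSeq starts of Dnmt1, 1 has an E2F spelling before it, with 2 GC boxes and 3 CCAAT boxes, and of 3 starts of Dnmt3a, 1 has an E-box and all 3 have a GC box. CpG pairs number 21 before Dnmt3b, 14 before Mbd3 and 22 before Mbd4, where the median promoter has 6, and 16.3%, 29.4% and 14.8% of promoters have as many. A match of letters is a description of the sequence and does not show that a factor binds.

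Other genes of DNA methylation changed in both directions. All 39 genes listed were tested. KBrO3 alone raised 16 and lowered 17 at 4 hr (34.5% and 38.1% of all genes) and raised 18 and lowered 10 at 24 hr (31.3% and 38.1%). Co-exposure raised 16 and lowered 19 at 4 hr (39.7% and 40.7% of all genes) and raised 19 and lowered 13 at 24 hr (34.5% and 38%). Their median difference at 4 hr was −0.07 and −0.20, against 0.02 and 0.01 over all genes. With scaling to the array median, the split after co-exposure at 24 hr was 21 higher and 5 lower.

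Of 6 other genes listed as readers of methylation or their relatives, 0 rose and 5 fell after KBrO3 alone at 4 hr, and 0 rose and 6 fell after co-exposure, where 38.1% and 40.7% of all genes fell, with median differences of −0.99 and −0.77. Mbd5 and Mbd6 carry the domain but are not known to bind methylated CpG. Zbtb4, a zinc finger protein that binds methylated CpG, had a control signal of 2.33 ± 0.03 (SD, n = 3). At 4 hr KBrO3 alone brought it to −0.52 ± 0.05 (SD, n = 3) and co-exposure to −0.60 ± 0.03 (SD, n = 3). The differences were −2.85 and −2.94, and −0.99 and −1.12 at 24 hr. It was also the single gene of the 39 called for BPA alone at 4 hr, at −0.93, in a comparison where slide as a fixed block left 0 genes called of 737. Mbd5 fell below the background on all 3 arrays of KBrO3 alone at 4 hr, at least 3.11-fold lower than control, and after co-exposure was above background on 2 of 3 arrays at 4 hr and −0.92 from control at 24 hr. Zbtb33 (Kaiso) was −0.87 from control after KBrO3 alone at 24 hr. At 24 hr 4 of the 6 were lower under each treatment, against 38.1% and 38% of all genes, and 1 was higher after co-exposure, against 34.5%. With normexp 5 and 4 fell at 4 hr and 3 under each treatment at 24 hr, and 0 rose.

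Among genes that act with the methyltransferases, Dnmt3l, the catalytically inactive partner of the de novo enzymes, had the largest rise of the 39. Its controls were at −3.86 ± 0.14 (SD, n = 3), with −1.28 ± 0.12 (SD, n = 3) at 4 hr of KBrO3 alone and −1.29 ± 0.01 (SD, n = 3) at 4 hr of co-exposure, a rise of 2.57 in both. At 24 hr after co-exposure it was 0.93 above control, a difference that turned direction with normexp and was not called there. Of 6 genes that bring Dnmt1 to replicated DNA or keep it there, 4 rose and 2 fell after KBrO3 alone at 4 hr and 4 rose and 1 fell after co-exposure, where 34.5% and 39.7% of all genes rose. The replication clamp gene Pcna was 1.03 above control after KBrO3 alone and 1.10 above it after co-exposure, and Uhrf1, whose protein binds hemimethylated CpG and recruits Dnmt1, differed by −0.19 (called, with the direction turned under normexp) and −0.08 (not called).

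Subunits of NuRD, the complex of Mbd2 and Mbd3, were split, with 5 of 11 higher and 2 lower after KBrO3 alone at 4 hr and 5 higher and 6 lower after co-exposure, against 34.5% and 38.1%, and 39.7% and 40.7%, of all genes. Gatad2a rose by 1.45 and 1.39 and Mta2 by 1.27 and 1.42 at 4 hr, and they were 0.62 and 0.67 above control after KBrO3 alone at 24 hr. Hdac2, a deacetylase subunit, was −0.80 and −0.91 from control at 24 hr.

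Supply of S-adenosylmethionine, the methyl donor, showed large changes in single genes. Mat2b, a regulatory subunit of the synthetase, differed by −1.94 and −2.09 at 4 hr. At 24 hr it read 1.755 and 1.536, against 1.994 in controls. Mat2a, of the same synthetase, was higher at 4 hr, at 5.948 after KBrO3 alone and 6.089 after co-exposure against 4.987 in controls. Methionine synthase, Mtr, rose by 1.01 and 1.42 at 4 hr and by 1.23 and 1.46 at 24 hr, and Ahcy, which clears S-adenosylhomocysteine, was 1.03 above control after co-exposure at 24 hr. Of the 5 genes of active demethylation, 3 rose and 2 fell after KBrO3 alone at 4 hr, against 34.5% and 38.1% of all genes. They include the thymine-DNA glycosylase gene Tdg, 0.78 and 0.76 above control at 4 hr, and Smug1, −0.42 and −0.57 from it. Tdg, whose substrates overlap those of Mbd4, thus rose where Mbd4 fell.

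**Figure D5:**
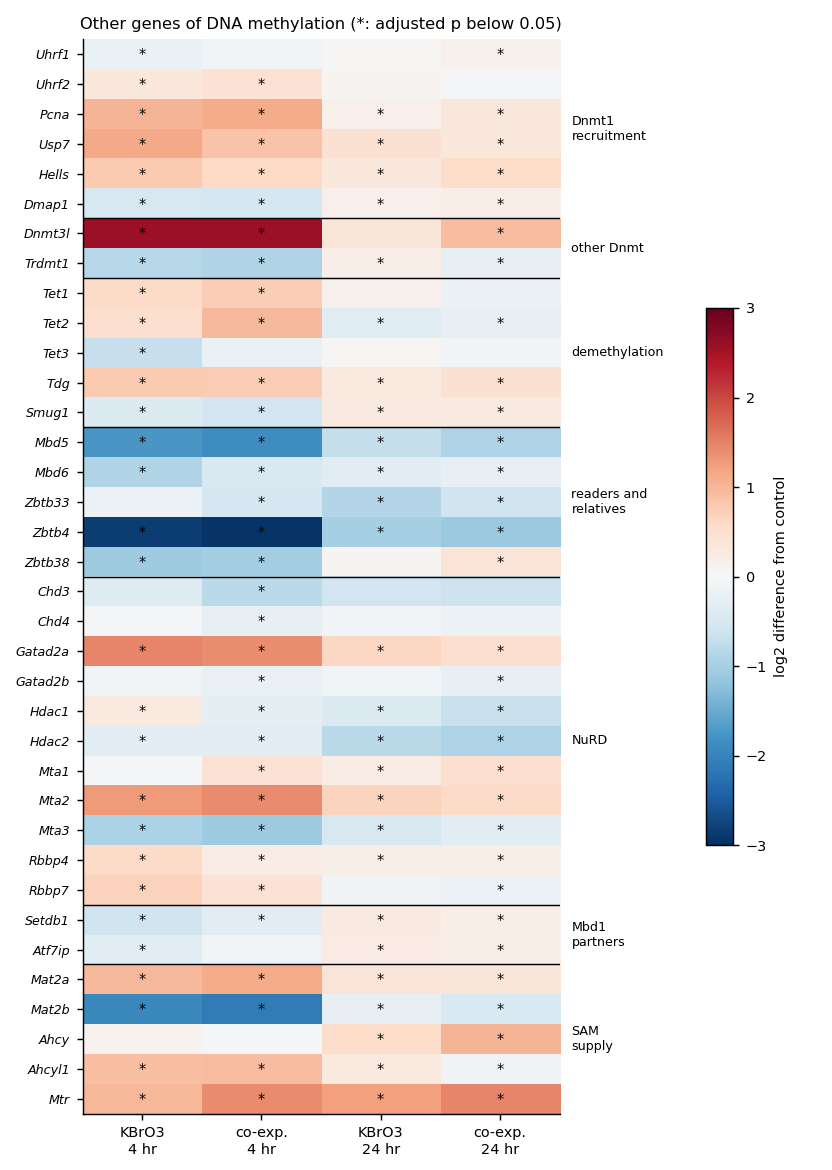
Log2 difference from control (color) for 36 of the 39 other genes of DNA methylation, in rows grouped by role, under KBrO3 alone and co-exposure at 4 and 24 hr in columns, with an asterisk for an adjusted p below 0.05. The darkest cells are Dnmt3l (2.57) and Zbtb4 (−2.85 and −2.94) at 4 hr, and most cells are paler at 24 hr.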

How the data were processed

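RNA was labelled with Cy3 and hybridized to 1-color Agilent arrays. The authors deposited, per spot, the processed signal, its error, the raw signal and the local background, all intensity values of Agilent Feature Extraction, version 9.5.3.1 for the first set and 12.0.0.7 for the second according to the file headers (12.0 in the submitters' processing notes). The series table that the authors deposited holds the same intensity values, equal for 1080432 of 1080432 within 1e-06.

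Signals were converted to log2 and each array's 75th percentile was subtracted. After removal of outlier spots, replicate spots of a probe were averaged. A probe entered the test if some group had it well above background on all 3 arrays, as did 27310 probes for the first set and 31809 for the second. Of 41174 probes, 23082 were named through their accession in the mouse RefSeq table of GRCm38.p6, 6582 by symbol and 3073 by an older symbol. Each set was fitted with limma 3.58.1 (lmFit and eBayes) in R 4.3.3, with all its groups in 1 fit, and adjusted p-values are Benjamini-Hochberg over all its probes. The steps were tested on simulated data. Each gene of the family is represented by its brightest probe, and other probes are given where named. Of the other listed genes, the 3 called genes with the largest rise and fall in a comparison with control may be named. Pcna, Uhrf1, Tdg, Smug1, Mat2a, Mcm5, Mcm4, Mcm7, Lum, Cd68, Cd3e, Tek, Dppa3, Krt5, Krt8, Krt14, Gfap, Myog and the markers at background were added after their values were seen, and 3 listed genes are counted but not reported singly here. The genes and lists were chosen with earlier results of these data known. Sequences are from the array files (build mm7) and from RefSeq (GRCm38.p6), whose promoter table had entries for 5 of the 7 genes, the others being Mbd1 and Mbd2. The raw intensity deposited by the authors that entered normexp (offset 50) was the spot mean for first-set arrays and the spot median for second-set arrays. The number of arrays, 3 per group, limits precision. Python 3.11.15 and pandas 2.3.3 read the tables.

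Alternatives were quantile normalization, scaling to the array median, normexp, the series table, other filters on dim probes, other sets of arrays in the fit, weights from the software's error, slide and replicate number as blocks, the methods' threshold, the mean of a gene's probes, and leaving out each array.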

Additional observations from a re-analysis of the deposited data

Results flagged for a closer look

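Every result here was picked out because levels under a treatment, or the BPA-added difference, differed between 4 and 24 hr by a limma test of that difference (adjusted p below 0.05). With no control labelled 24 hr, a change in level between the times cannot be told apart from time in culture. Under KBrO3 alone the 24 hr level minus the 4 hr level was 0.54 for Dnmt1, −0.84 for Dnmt3a, −1.24 for Dnmt3b, −0.88 for Mbd1, 0.42 for Mbd2, 0.70 for Mbd3 and 1.39 for Mbd4. Under co-exposure it was 0.95 for Dnmt1, −1.07 for Dnmt3b, −0.59 for Mbd1, 0.56 for Mbd2, 1.40 for Mbd3 and 1.03 for Mbd4. The BPA-added difference, co-exposure minus KBrO3 alone, changed from 4 to 24 hr by 0.41 for Dnmt1, 0.73 for Dnmt3a, 0.29 for Mbd1, 0.70 for Mbd3 and −0.35 for Mbd4. Groups of 3 arrays were not searched for outlying arrays.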

How the results depend on the processing

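Counts below are of the 7 genes called. With normexp background correction, KBrO3 alone at 4 hr changed 3 of them in place of 5, BPA added to KBrO3 changed 1 at either time (5 at 4 hr and 4 at 24 hr in the main values), and the change of the BPA-added difference was called for 0 in place of 5. With normexp the log2 difference turned from −0.20 to 0.0513 for Dnmt1 after KBrO3 alone at 4 hr, and for Dnmt3b at 24 hr from 0.53 to −0.63 after KBrO3 alone and from 0.83 to −0.35 after co-exposure. A fit of all 24 arrays together, which uses the wider spread of the second set, called 3 for KBrO3 alone at 24 hr, 4 and 3 for co-exposure at 4 and 24 hr, 2 and 1 for BPA added at 4 and 24 hr and 0 for its change, and for BPA alone 1 at 4 hr and 2 between the times. The stricter rule called 1 for KBrO3 alone and 1 for co-exposure at 24 hr, 4 for co-exposure at 4 hr, 1 and 0 for BPA added at 4 and 24 hr, 3 for KBrO3 alone between the times and 0 for the change of the BPA-added difference. With slide as a random block, BPA added at 24 hr changed 7 and the change of the BPA-added difference was called for 3. Fitting only the 6 arrays compared, or averaging all probes of a gene, each left 2 for BPA added at 24 hr. The mean of all probes also turned Mbd2 for BPA added at 4 hr from −0.32 to 0.36 and Mbd1 for BPA added at 24 hr from 0.21 to −0.0515. Scaling to the array median turned Mbd4 after co-exposure at 24 hr from −0.24 to 0.0738 and Dnmt3a after co-exposure, 24 against 4 hr, from −0.11 to 0.35. That scaling moved the median difference of all genes by up to 0.46 (co-exposure, 24 against 4 hr). Quantile normalization, the series table and weights changed no count by over 1.5 times. The cause of these shifts was not tested.

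Leaving out 1 array at a time gave 5 to 6 called for KBrO3 alone at 4 hr, 6 to 7 at 24 hr, 7 and 5 to 6 for co-exposure, 5 and 2 to 4 for BPA added, and 4 to 5 for its change. The 2 came without replicate 2 of co-exposure at 24 hr. The rise of Dnmt1 after co-exposure at 24 hr was not called without replicate 2 of control (0.15, adjusted p = 0.072), nor without replicate 1 (0.17, adjusted p = 0.0602) or replicate 2 (0.16, adjusted p = 0.062) of that treatment.

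Replicate numbers are shared between groups but do not pair the arrays, since deviations of equally numbered arrays from their group means had an average correlation of −0.029 among first-set arrays (range −0.21 to 0.11) and 0.0022 among second-set arrays (range −0.38 to 0.65), and 1 of 15 and 2 of 9 arrays correlated best with their own number. With the replicate block, BPA added at 24 hr changed 3 in place of 4, and no other count of the 7 genes moved.

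Over all genes, the counts for BPA alone depend most on the setting. They were 737 and 678 at 4 and 24 hr, 15 and 0 with normexp, 0 and 0 with slide as a fixed block, 456 and 445 with scaling to the array median, and 4048 and 3922 in the fit of all arrays. Within slides, the second set's differences for Dnmt3a under BPA at 24 hr were 1.70 and −1.15 on the 2 slides with both groups.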
